A study of Equus caballus with 6 samples.

Results

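Type I collagen is the main fibril-forming protein of tendon, and its chains are made from the genes COL1A1 (ENSECAG00000013693) and COL1A2 (ENSECAG00000024740). These 2 genes were taken by their Ensembl identifiers from the 26992 entries of a sequencing experiment on equine tenocytes, the resident fibroblasts of tendon. Each chain and the ratio of COL1A1 to COL1A2 were followed through all 6 libraries. The rule used their identifiers only.

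The donor of the tenocytes (superficial digital flexor tendon) was a single 5-year-old light breed female horse, and the cells were used at passage 3. Cells of the scramble control group (3 libraries) were nucleofected with a non-targeting siRNA, and cells of the Scx siRNA group (3 libraries) with a siRNA against the equine mRNA of scleraxis (Scx). Both groups were plated on flexible silicone coated with type I collagen and strained uniaxially by 1% at a frequency of 0.5 Hz, in sessions of 2 h a day on 3 days. No unstrained cells and no cells without siRNA were among the libraries analysed here, so strain and nucleofection were shared by all of them. The experiment was run 3 times with this animal's cells to give the replicates, and p-values measure the spread between these repeats and not between horses.

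A molecule of type I collagen is a triple helix of a pair of α1(I) chains and a single α2(I) chain, encoded by COL1A1 and COL1A2. The genes lie on different chromosomes and are usually transcribed together, and the trimers are secreted as procollagen, trimmed at both ends and assembled into fibrils with collagens III and V. Scx is a basic helix-loop-helix transcription factor of tendon cells and their progenitors and is known to bind regulatory elements of type I collagen genes. The question of the comparison was which genes of strained adult tenocytes change when Scx is targeted.

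The perturbation was a duplex siRNA, shown because every difference between the groups is a difference between cells given this duplex and cells given the scramble siRNA. Each strand has 21 bases, of which 19 pair with the other strand and 2 overhang at the 3′ end. Both are written 5′ to 3′, and the capitals in the antisense strand mark bases 2 to 8, the seed with which a guide strand first pairs with a target.
Sense: agagaaaguugagcaaggatt
Antisense: uCCUUGCUcaacuuucucugg

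Reads counted on genes ranged from 8181819 to 12213421 in the scramble control and from 6539504 to 10255963 under Scx siRNA, on 13151 to 13392 and 11026 to 11183 genes. Every Scx siRNA library thus had reads on fewer genes than any control library, and this did not follow depth. The second Scx siRNA library had 10255963 reads on 11183 genes, and the first control library 8181819 reads on 13151. The reason was not tested. Scx itself had 5, 7 and 25 reads in the scramble control and 5, 0 and 0 reads under Scx siRNA, where 3 reads is the limit that a count of 0 allows, so the first Scx siRNA library was not lower in Scx than 2 of the 3 control libraries (4.88 and 5.88 against 6.16 normalized counts). On the log2 scale Scx differed by -2.19 (standard error, SE, of 1.14, limma-adjusted p = 0.192). Leaving out the first Scx siRNA library, the only library of its group with Scx reads, gave -3.14 (adjusted p = 0.0464). That larger difference follows from which library was left out. Over the other settings the difference ran from -2.80 to -0.02. With 25 reads or fewer in each library the level of Scx was poorly measured here, and the study's qPCR of Scx in the same samples was not analysed here. Of the tenocyte markers, MKX, a tendon homeobox factor, had 727 ± 45.8 and 868 ± 239 normalized counts (SD, n = 3 each), and TNMD (tenomodulin) had no reads in any library. Other tenocyte markers went in both directions on the log2 scale. COMP stood at -0.92 (limma-adjusted p = 0.0241) and DCN at 0.73 (adjusted p = 0.0379). FMOD stood at -0.79 (adjusted p = 0.236) and THBS4 at -0.95 (adjusted p = 0.33). The endothelial marker SELE was at 0 throughout, and the epithelial marker TRIM29 reached at most 11 reads in the scramble control and 3 under Scx siRNA. The second Scx siRNA library stood apart from the others of its group, with a chi-square of its reads per gene of 114 and 120 against them, where the other pair differed by 25.4 and the scramble control pairs by 7.37 to 14.6. The log2 differences of the chains and of their ratio are therefore given with and without it. Other results on the chains include it.

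COL1A1, the gene of the α1(I) chain, was lower in tenocytes exposed to Scx siRNA. Its normalized counts, which are reads divided by a factor for the library's depth, were 19153, 23816 and 23010 in the scramble control libraries and 11493, 7892 and 12654 in the Scx siRNA libraries. No Scx siRNA library reached the lowest control library, and the second Scx siRNA library was the lowest. The means were 21993 ± 2493 and 10679 ± 2483 (SD, n = 3 each), so Scx siRNA cells held 48.6% of the control level. The log2 fold change was -1.06 (SE 0.23, 95% interval -1.61 to -0.52), with an adjusted p of 0.0178 from limma over 11517 genes. A gene was called when its adjusted p was under 0.05; 12.1% of all tested genes were called lower, and 25.8% were lower with groups that did not overlap, so neither property set COL1A1 apart from many other genes.

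The log2 fold change of COL1A1 was smaller in size than the 1.5 that the study asked for in its own list of changed genes, and 24.5% of tested genes had a fold change at or below it. The median gene was itself at -0.20, and relative to that median COL1A1 stood at -0.86. An exact permutation test of the normalized counts alone gave p = 0.1, the smallest that 3 libraries against 3 can give. In these bulk RNA libraries, fewer cells that transcribe COL1A1 and less COL1A1 RNA per cell cannot be told apart. With the second Scx siRNA library left out, COL1A1 stood at -0.86 (limma-adjusted p = 0.00509). The cartilage marker ACAN, the core protein of aggrecan, also fell, from 495 ± 67.3 to 114 ± 5.24 normalized counts (SD, n = 3 each, limma-adjusted p = 0.00281). Of the fibroblast markers, VIM had 84348 ± 2739 and 119400 ± 27895 (adjusted p = 0.208), and FAP rose from 9326 ± 806 to 31582 ± 5434 (adjusted p = 0.00308). VIM was higher in every Scx siRNA library than in every control library, a pattern found in 22.3% of all tested genes. The part of these markers in the COL1A1 result was not tested. Without the first, the second or the third scramble control library COL1A1 was -1.16, -1.004 or -1.03, with adjusted p of 0.0562, 0.0964 and 0.0889; calls over all genes fell to between 4.50% and 7.64% in these fits, from 25.0% with all libraries.

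Behind these values were 19636, 28357 and 35984 COL1A1 reads in the scramble control and 9334, 7918 and 9160 under Scx siRNA. As a share of all reads on genes, COL1A1 took 0.240%, 0.300% and 0.295% in the control and 0.119%, 0.0772% and 0.140% under Scx siRNA. The exact 95% intervals of the second and the third control library, 0.297% to 0.304% and 0.292% to 0.298%, overlapped, and those of the other libraries were separate from each other and from these. They cover counting error only, since PCR copies are not independent molecules. Counting alone would give a coefficient of variation of 0.598% in the control and 1.07% under Scx siRNA, while the observed values were 11.3% and 23.3%.

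COL1A2, the gene of the α2(I) chain, did not differ detectably between the groups. The normalized counts were 69062, 70778 and 63857 in the scramble control and 75510, 76224 and 55734 under Scx siRNA. The groups overlapped, with the first and second Scx siRNA libraries above all control libraries and the third below all of them. Means were 67899 ± 3605 and 69156 ± 11629 (SD, n = 3 each), which put Scx siRNA at 102% of the control. The log2 fold change of 0.01 had a SE of 0.23 and a limma-adjusted p of 0.971, and its 95% interval of -0.53 to 0.56 leaves room for changes of that size in either direction. The exact permutation test gave p = 1.

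The sign of this near-zero difference depended on how the libraries were scaled, which was not so for COL1A1. COL1A2 took 0.865%, 0.892% and 0.818% of all reads on genes in the scramble control and 0.783%, 0.746% and 0.617% under Scx siRNA. On that scale the groups did not overlap, with means of 0.858% ± 0.0378 and 0.715% ± 0.0873 (SD, n = 3 each), a log2 difference of -0.27 and an exact permutation p of 0.1. In the fit on total reads the adjusted p was 0.344 (limma), and the median gene moved to -0.48, below COL1A2. That fit called 2072 of 11517 genes lower, against 1395 on the deposited scale. How many of all genes did not overlap as a share of reads was not counted. Relative to the median gene COL1A2 stood at 0.22 on the deposited scale and at 0.21 on total reads, but at -0.24 after quantile normalization and -0.34 after cyclic loess normalization. Without the second Scx siRNA library the log2 fold change of COL1A2 was -0.06 (limma-adjusted p = 0.81).

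**Figure D1:**
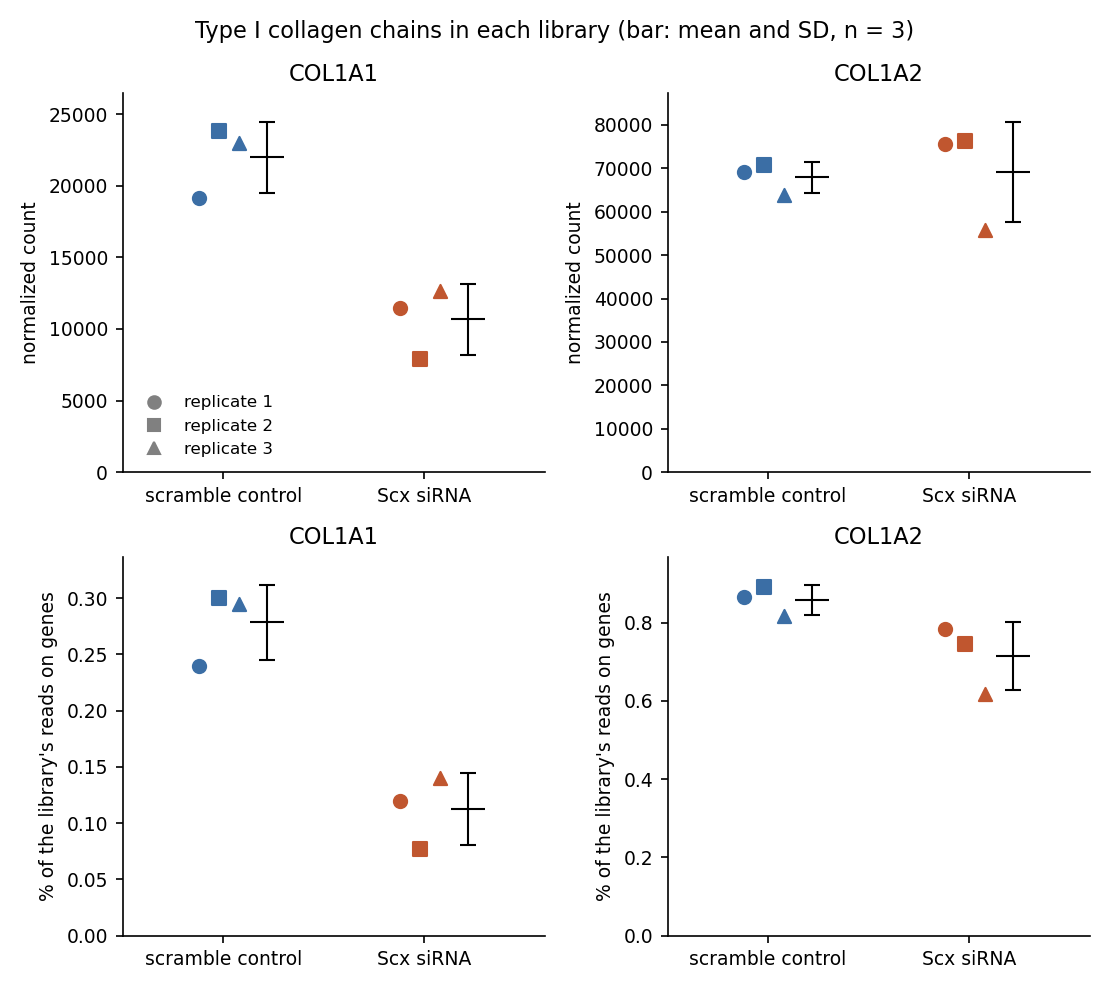
COL1A1 (left) and COL1A2 (right) in each library, as normalized counts (top) and as percent of the library's reads on genes (bottom), with marker shapes for the replicate number and bars for the mean and SD (n = 3). The Scx siRNA libraries of COL1A1 lie below the control on both scales (at most 12654 against at least 19153 normalized counts), whereas those of COL1A2 overlap the control in normalized counts and lie below it as a share of reads (at most 0.783% against at least 0.818%).

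The ratio of the chains was examined next because a ratio of reads within a library does not depend on scaling between libraries. COL1A1 reads per COL1A2 read were 0.277, 0.336 and 0.360 in the scramble control and 0.152, 0.104 and 0.227 under Scx siRNA. Every Scx siRNA library was below every control library, but non-overlap of such ratios was not counted over all genes. The means were 0.325 ± 0.0427 and 0.161 ± 0.0622 (SD, n = 3 each). These are reads and not molecules: they were not divided by transcript length, so the ratio compares libraries and does not give the proportion of the chains in a cell.

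Put the other way, each COL1A1 read came with 3.61, 2.97 and 2.78 COL1A2 reads in the control and with 6.57, 9.66 and 4.40 under Scx siRNA. The α1(I) share of the reads of both chains was 21.7%, 25.2% and 26.5% in the control and 13.2%, 9.38% and 18.5% under Scx siRNA. The highest Scx siRNA share had an exact 95% interval of 18.2% to 18.8% and the lowest control share one of 21.4% to 21.98%, so counting error did not bridge the groups.

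The change of COL1A1 relative to COL1A2 was a log2 difference of -1.08 (SE 0.30, 95% interval -1.77 to -0.38), with an adjusted p of 0.0406 from limma when every gene was expressed relative to COL1A2 of its own library. This is the test of whether the chains changed unequally, and 9.51% of the genes were called lower on the same scale. The exact permutation test of the log2 ratio gave p = 0.1, the smallest possible. Without the second Scx siRNA library the difference was -0.80 (adjusted p = 0.0306). The call was lost without the first Scx siRNA library (-1.07, adjusted p = 0.0905) and without the first, the second or the third scramble control library (-1.19, -1.05 and -0.998, with adjusted p of 0.102, 0.149 and 0.157), all from limma. It was also lost when no filter on low values was used (adjusted p = 0.0549) and after quantile normalization (adjusted p = 0.0622).

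Within the Scx siRNA group the chains had opposite orders in normalized counts. On that scale the second library had the lowest COL1A1 and the highest COL1A2, and the third had the highest COL1A1 and the lowest COL1A2. As a share of reads COL1A2 was highest in the first library (0.783%), so there the orders were not opposite. The SD of the log2 ratio under Scx siRNA, 0.566, was larger than that of the log2 normalized counts of COL1A1 (0.360) or of COL1A2 (0.257). In the scramble control the SDs were 0.196 for the ratio, 0.169 for COL1A1 and 0.0775 for COL1A2. With 3 libraries a group these SDs are descriptions.

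**Figure D2:**
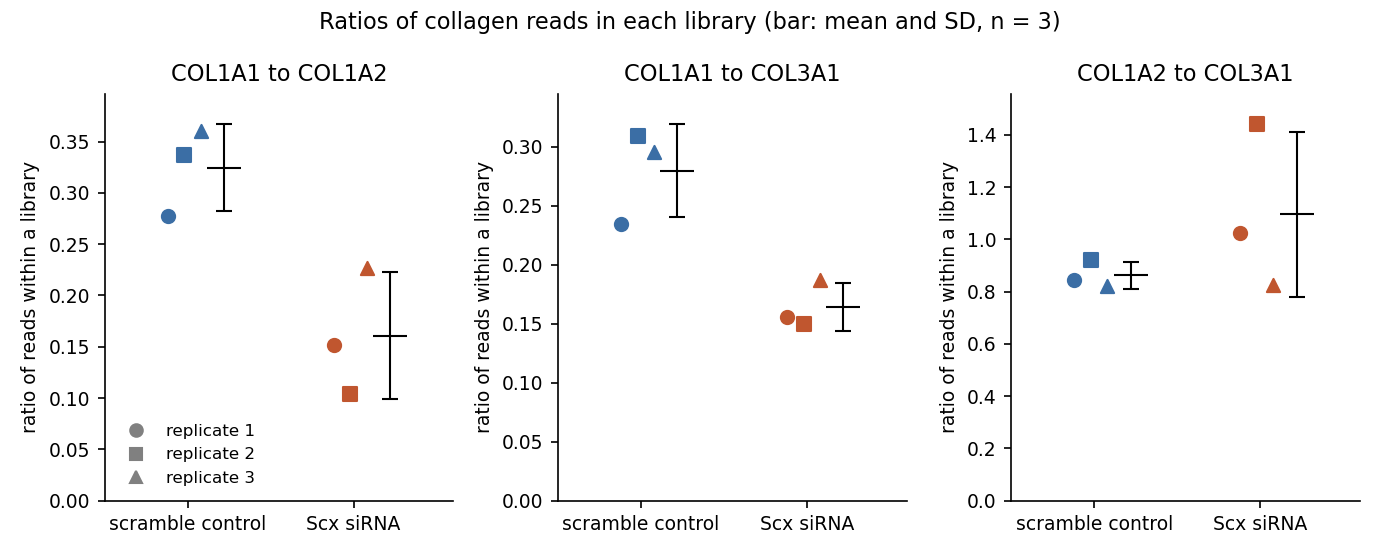
Ratios of reads within each library for COL1A1 to COL1A2, COL1A1 to COL3A1 and COL1A2 to COL3A1, with marker shapes for the replicate number and bars for the mean and SD (n = 3). Both ratios with COL1A1 on top are lower in every Scx siRNA library than in every control library (0.104 to 0.227 against 0.277 to 0.360 for the chains of type I collagen), and the groups overlap for COL1A2 to COL3A1.

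Most reads of the chains summed were COL1A2 reads. Summed normalized counts were 88215, 94595 and 86867 in the scramble control and 87003, 84116 and 68388 under Scx siRNA, with means of 89892 ± 4128 and 79836 ± 10019 (SD, n = 3 each). The groups overlapped (exact permutation p = 0.2). As a share of reads the chains together took 1.11% to 1.19% in the control and 0.757% to 0.903% under Scx siRNA, without overlap (exact permutation p = 0.1). Non-overlap on that scale was not counted over all genes.

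Type I collagen was then set beside 26 other genes that build, bind, cut or regulate its fibrils, which made a list of 28 with the chains. Of these, 26 had a mean of at least 5 normalized counts and were tested. With the chains, 8 of the 26 were called lower and 5 higher under Scx siRNA, and 13 were not called, against 12.1% lower and 12.9% higher among all tested genes. The median log2 fold change of the list was -0.68, and that of all genes was -0.20. Without any 1 of the scramble control libraries only 1 gene of the list, COL5A1, was called lower. The number called higher was 2, 1 and 1 without the first, the second and the third of them. Over all genes these fits called 281, 137 and 173 lower and 597, 380 and 415 higher, of 11492, 11488 and 11478 tested. With all libraries 1395 were called lower and 1487 higher. Without the first Scx siRNA library 3 list genes were called higher, beside 1242 of all 11532 genes tested.

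Among the other fibrillar collagens, COL5A1 was called and COL3A1 was not. COL5A1, whose collagen V nucleates fibrils and limits their diameter, had 1816, 2203 and 1956 normalized counts in the scramble control and 488, 854 and 651 under Scx siRNA, without overlap. Its log2 fold change of -1.62 (SE 0.23, limma-adjusted p = 0.00495) was larger in size than that of COL1A1, a difference that was not tested. COL3A1, the gene of the collagen that forms mixed fibrils with type I, had 81622, 77001 and 77851 against 73798, 52834 and 67587 normalized counts, and again the groups did not overlap. Its log2 fold change was -0.30 with an adjusted p of 0.368, and 0.0442 after cyclic loess normalization (limma).

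Of the collagens outside the fibril core, COL6A3 of the beaded filaments around cells fell from 50245 ± 2384 to 28470 ± 2145 normalized counts (SD, n = 3 each), which is -0.82 on the log2 scale with an adjusted p of 0.0219 (limma). Its adjusted p was above 0.05 without any 1 of the scramble control libraries, between 0.0935 and 0.106, and it was 0.083 with no filter on low values, 0.0526 with replicate number as a block and 0.0708 when the groups were weighted separately. COL12A1, which sits on fibril surfaces, had 12097 ± 2629 and 9448 ± 2538 with overlapping groups and a log2 fold change of -0.37 (adjusted p = 0.335; 0.0273 after quantile and 0.0356 after cyclic loess normalization). In all, 3 of the 6 collagens were called lower. None was higher by limma at an adjusted p under 0.05 or at an unadjusted one, nor by edgeR or DESeq2. Relative to COL1A2 in the same library, COL5A1 (-1.63, adjusted p = 0.00807) and COL6A3 (-0.83, adjusted p = 0.0306) were also lower, and COL3A1 (-0.31, adjusted p = 0.426) and COL12A1 (-0.38, adjusted p = 0.225) were not called.

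Ratios to the other fibrillar collagens are given as descriptions, since non-overlap of ratios was not counted over all genes. COL1A1 reads per COL3A1 read were 0.235, 0.309 and 0.296 in the scramble control and 0.156, 0.149 and 0.187 under Scx siRNA, and did not overlap. For COL1A2 per COL3A1 the values were 0.846, 0.919 and 0.820 against 1.02, 1.44 and 0.825, so the groups overlapped through the third Scx siRNA library. COL1A2 per COL5A1 read was 38.0, 32.1 and 32.6 in the control and 155, 89.2 and 85.7 under Scx siRNA, without overlap. Each COL1A2 read thus came with fewer COL5A1 reads in every Scx siRNA library than in any control library. COL1A1 per COL5A1 read was 10.5, 10.8 and 11.8 against 23.6, 9.24 and 19.4, and overlapped through the second Scx siRNA library, in which COL1A1 was lowest and COL5A1 was highest of its group.

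The small leucine-rich proteoglycans, which bind collagen fibrils and regulate their growth and spacing, included no gene called lower by limma, at an adjusted or an unadjusted p under 0.05, nor by edgeR or DESeq2. Of 5 tested, 3 were called higher: DCN (decorin) with a log2 fold change of 0.73 (adjusted p = 0.0379), LUM (lumican) with 1.23 (adjusted p = 0.00951) and ASPN (asporin) with 1.46 (adjusted p = 0.00855), all from limma. In these 3 genes every Scx siRNA library was above every control library, a pattern found in 22.3% of all tested genes. Without any 1 of the scramble control libraries DCN and LUM were not called (adjusted p from 0.0505 to 0.18), nor was ASPN without the second (0.0583) or the third (0.0569). Testing without a filter on low values left LUM at an adjusted p of 0.0649 and DCN at 0.18. Nor was DCN called without the first Scx siRNA library (0.0821), with replicate number as a block (0.0839) or with separately weighted groups (0.135). Its log2 fold change was 0.45 on total reads, 0.58 after quantile and 0.33 after cyclic loess normalization, with adjusted p of 0.122, 0.112 and 0.189. Normalized counts of BGN (biglycan) were 6964 ± 128 and 5218 ± 2607 and those of FMOD (fibromodulin) 133 ± 43.3 and 79.5 ± 34.6 (SD, n = 3 each), with overlapping groups and adjusted p of 0.324 and 0.236. KERA (keratocan) had too few reads to be tested.

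Among the matrix partners, 3 of 6 were called lower. LOXL4, a lysyl oxidase-like enzyme of the family that cross-links collagen, fell from 435 ± 18.2 to 186 ± 41.0 normalized counts (SD, n = 3 each), which is -1.24 on the log2 scale (limma-adjusted p = 0.0119). COMP, a pentameric glycoprotein that binds collagen and aids fibril assembly, stood at -0.92 on the log2 scale (adjusted p = 0.0241), and TNC (tenascin-C), a glycoprotein of tissue under load, at -0.78 (adjusted p = 0.0217). All 3 had an adjusted p above 0.05 without any 1 of the scramble control libraries, with 0.0600 as the lowest value and 0.129 as the highest. COMP was also not called when the first Scx siRNA library was left out (0.0577). Weighting the groups separately gave an adjusted p of 0.0721 for COMP and 0.0824 for TNC. FN1 (fibronectin), on which collagen is deposited, stood at -0.03 (adjusted p = 0.922), THBS1 at -0.25 (adjusted p = 0.46) and THBS4, at 30 reads or fewer in every library, at -0.95 (adjusted p = 0.33).

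The proteinases that act on collagen or gelatin were called in both directions, 1 lower and 2 higher of 5 tested. MMP2, a gelatinase, had 13931, 13784 and 14685 normalized counts in the scramble control and 9236, 5243 and 9072 under Scx siRNA, a log2 fold change of -0.89 (limma-adjusted p = 0.038). The collagenase MMP13 stood at 0.85 on the log2 scale (adjusted p = 0.0286) and FAP, a fibroblast surface protease that cuts denatured collagen, at 1.75 (adjusted p = 0.00308). Neither MMP2 nor MMP13 was called without any 1 of the scramble control libraries (adjusted p from 0.0975 to 0.142), nor was MMP2 with no filter on low values (0.0533) or MMP13 without the first Scx siRNA library (0.0695). MMP13 stood at 0.57 on total reads, 0.44 after quantile and 0.48 after cyclic loess normalization, with adjusted p of 0.0604, 0.109 and 0.0881. FAP had 9326 ± 806 and 31582 ± 5434 normalized counts (SD, n = 3 each), and its call held in each fit that left out 1 library, with adjusted p up to 0.0334. CTSK (cathepsin K), a collagen-cutting lysosomal protease, stood at 50839 ± 792 and 50649 ± 1833 (log2 fold change -0.01, adjusted p = 0.984), and MMP3 (stromelysin) at 88.0 ± 13.7 and 57.5 ± 45.3 (adjusted p = 0.30), or -1.52 on the log2 scale without the second Scx siRNA library (adjusted p = 0.0289). MMP1 had too few reads to be tested.

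TGFB3, a growth factor of the TGF-β family that induces collagen and Scx in tendon cells, was the called gene among 4 regulators. It had 3173, 3344 and 3483 normalized counts in the scramble control and 1847, 1189 and 1897 under Scx siRNA, without overlap, a log2 fold change of -1.05 (SE 0.21, limma-adjusted p = 0.0146). Its call was lost without any 1 of the scramble control libraries (adjusted p between 0.0614 and 0.0804). TGFB1, its close relative, had 445, 411 and 423 against 247, 69.8 and 312, also without overlap, with a log2 fold change of -1.27 and an adjusted p of 0.118. Without the second Scx siRNA library, its lowest, TGFB1 stood at -0.61 with an adjusted p of 0.0233, and with all libraries and separately weighted groups its adjusted p was 0.0359. MKX stood at 0.22 (adjusted p = 0.482).

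**Figure D3:**
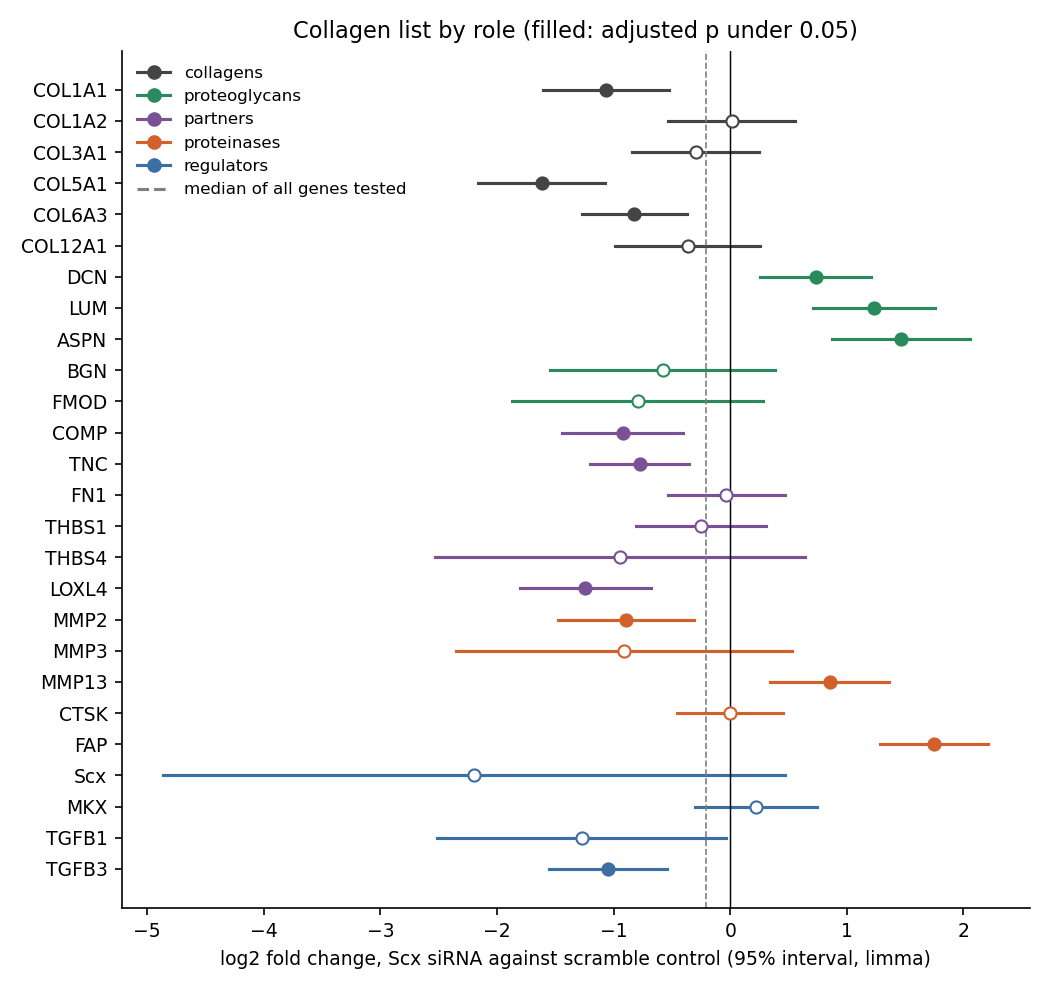
Log2 fold change of the 26 tested genes of the collagen list, Scx siRNA against scramble control, with 95% intervals from limma, coloured by role. Filled circles are genes with an adjusted p under 0.05 (8 lower, 5 higher), the solid line marks no change and the dashed line the median of all 11517 genes at -0.20.

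The genes whose library-by-library pattern was nearest to each chain differed between the chains. Likeness was the root mean square difference over the 6 libraries between log2(normalized count + 1) values, each gene centred on its own mean, among 87 genes with a known symbol. Nearest to COL1A1 were TGFB3 at 0.0766, LOXL4 at 0.114 and MMP2 at 0.151. All 4 genes were highest in the scramble control and lowest in the second Scx siRNA library, where the centred values were -0.94 for COL1A1, -0.96 for TGFB3 and -0.98 for both LOXL4 and MMP2. That library stood apart from its group over all genes, and likeness was not computed without it. COL1A2 was number 45 of the 87 in likeness to COL1A1, at 0.640.

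Nearest to COL1A2 were APP, the amyloid precursor protein, at 0.119, CTSK at 0.138 and the chaperone HSPA8 at 0.182. These 3 genes stayed between -0.21 and 0.20 around their own means in every library, so they were alike to COL1A2 in varying little. COL1A1 was number 50 of the 87 in likeness to COL1A2. Since the 6 libraries fall into 2 groups, genes with alike group means come out as near on this measure.

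**Figure D4:**
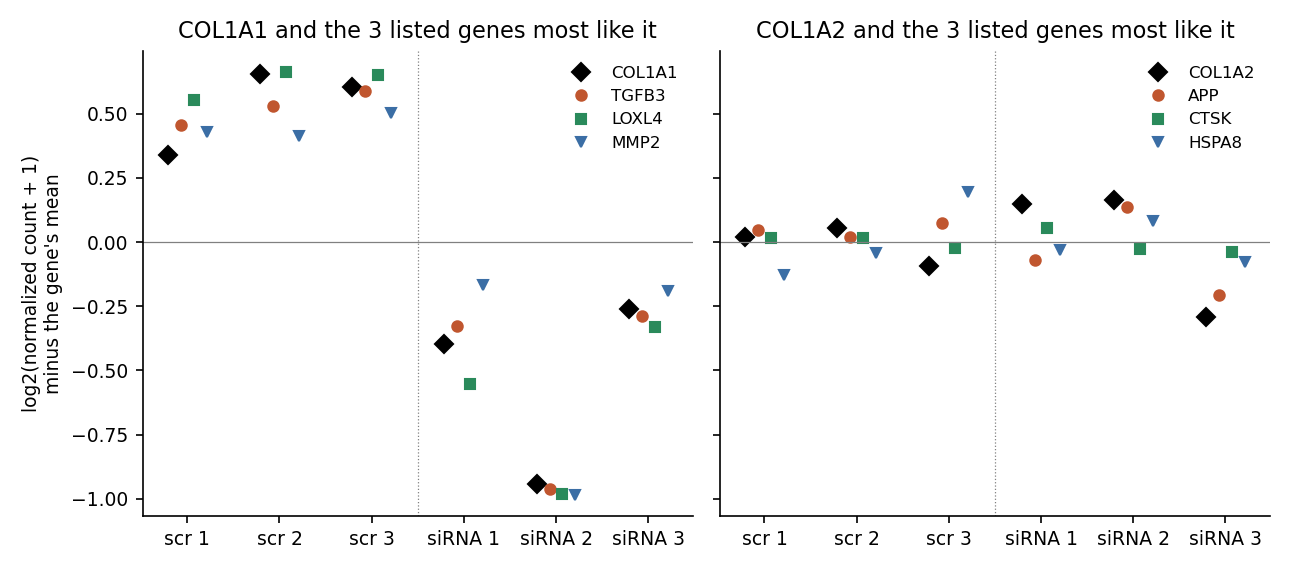
COL1A1 (left) and COL1A2 (right), black diamonds, with the 3 listed genes nearest to each, as log2(normalized count + 1) minus the gene's mean in each library (scr, scramble control; siRNA, Scx siRNA). TGFB3, LOXL4 and MMP2 lie close to COL1A1 in every library and reach about the same low point in the second Scx siRNA library (-0.94 to -0.98), whereas APP, CTSK and HSPA8 stay near 0 with COL1A2.

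The estimates for the chains were recomputed under 12 other settings with every library kept and with each library left out. COL1A1 lay between -1.47 and -1.04 in the former and was called in all 12, with adjusted p from 0.000181 to 0.030. COL1A2 lay between -0.38 and 0.03 and was called in none, with adjusted p from 0.144 to 0.982 over limma, edgeR and DESeq2. The log2 ratio difference lay between -1.17 and -1.01 and was called in 10 of the 12. Scaling with TMM or on total reads cannot change a ratio within a library. Those settings left the difference at -1.08 and were no separate check of it.

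**Figure D5:**
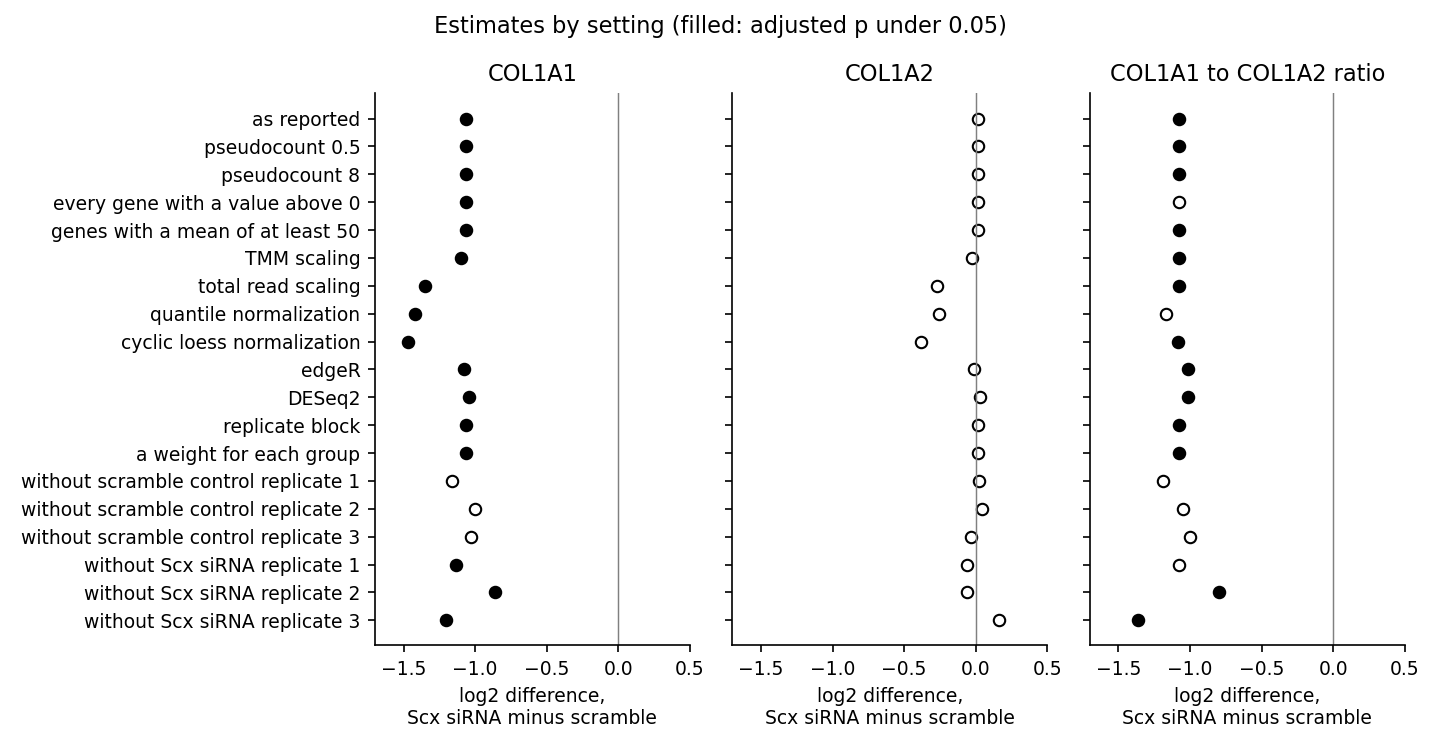
Log2 difference, Scx siRNA minus scramble control, for COL1A1, COL1A2 and their ratio under each setting, with filled circles for an adjusted p under 0.05. COL1A1 stays at or below -0.86 in every setting with its circle open only without a scramble control library, COL1A2 lies on both sides of 0, and the ratio lies between -1.36 and -0.80.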

How the data were processed

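PolyA-enriched RNA of 6 libraries (13 rounds of PCR) was sequenced. Per the labels and the study's methods, the authors removed adaptors with Trimmomatic, aligned reads to EquCab2 with HISAT2 2.0.3, used HTSeq to count reads on features of Ensembl 90, and scaled these counts with DESeq2 1.12.4. The deposited values are a signal per gene, counts divided by the library's DESeq2 size factor. Columns with the authors' own comparison (fold changes, standard errors, statistics, p-values) were not used. Within each library all values were multiples of 1 step to within 0.01, so whole reads were recovered. The step of the second Scx siRNA library was 0.997, and none of its values above 0 was itself a whole number.

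The main test was limma 3.58.1 on log2(normalized count + 1) for the 11517 genes whose mean normalized count was 5 or more (R 4.3.3; trend, two-sided, no covariates), with Benjamini-Hochberg adjustment over all of them. A fold change on that scale understates the change of low genes. For the ratio, every gene was expressed relative to COL1A2 of its library. Two-sided exact permutation tests cannot go below 0.1 with 3 against 3. Alternatives included edgeR 4.0.16 and DESeq2 1.42.0 on the recovered reads. Intervals of read shares are exact binomial (scipy 1.17.1). Scripts were tested on simulated data.

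The members and lists were chosen with earlier results of these data known. Named genes were the chains, the 28 genes of the collagen list (those that the study pairs with a symbol), a few cell type markers and the 3 genes nearest to each chain. Of the 26992 identifiers the reference table of gene names matched 1, Scx, so symbols came from the study's own pairing, and no collagen sequence, position or transcript length was analysed here. Reads of homologous collagen genes could be split by the counting.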

Additional observations from a re-analysis of the deposited data

How the results depend on the processing

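On the log2 scale, COL1A2 changed sign with scaling, at -0.023 with TMM, -0.27 on total reads, -0.25 after quantile and -0.38 after cyclic loess normalization and -0.011 with edgeR; with 1 library left out it ran from -0.064 to 0.16. COL1A1 ran from -1.20 to -0.86 with 1 library left out. The log2 ratio difference was -1.08 with every gene above 0 tested and -1.17 after quantile normalization, neither past the threshold, and ran from -1.36 to -0.80 with 1 library left out; the cause was not tested. List genes called lower ran from 1 to 10 and called higher from 1 to 5 with 1 library left out. Calls over all genes in these fits ran from 4.50% to 42.4%. The 10 came without the second Scx siRNA library, where 2595 of 11539 genes were called lower. With every library kept, 3 list genes were called higher with every gene above 0 tested, on total reads, and after quantile or cyclic loess normalization. Of single genes, FN1 ran from -0.082 to 0.025 and CTSK from -0.036 to 0.012 with 1 library left out, THBS4 was 0.13 after cyclic loess normalization, and MKX was -0.059 on total reads and -0.0072 after quantile normalization.

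With the replicate block COL1A1 was -1.06 (adjusted p = 0.0297) and the ratio -1.08 (adjusted p = 0.0367, both limma), and calls over all genes fell from 25.0% to 18.4%. It lost the calls of COL6A3 (adjusted p = 0.0526) and DCN (0.0839). Deviations of same-numbered libraries correlated at -0.0789, 0.0153 and 0.169, so pairing was not used; whether a number marks a shared run is not given in the sources used here. Over the 24 other tested genes, 263 of 286 fits with every library kept and 103 of 143 with 1 left out kept direction and side of the threshold. A left-out library leaves 2 in its group and fewer degrees of freedom. The ratio per coding length was not run, because no length was at hand. The median of all genes ran from -0.48 on total reads to -0.02 after quantile normalization.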
